A study of Mus musculus with 8 samples.

Results

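The genes described here are 10 secreted factors, receptors and antagonists that have been tied to wasting in cancer and lie outside the IL-6 family: Inhba, Inhbb, Mstn, Fst, Gdf15, Tnf, Tnfsf12, Tnfrsf12a, Pthlh and Azgp1. They were chosen by name, for their known roles, from the 27179 genes listed in the tumor RNA-seq table, and each had 1 row. Their mRNA was measured in subcutaneous C26 colon carcinomas grown in male CD2F1 mice, 4 of them control tumors (cxC26 scr) and 4 knockout tumors (cxC26 IL6KOs1). By the study's methods, mice were euthanized once they had lost more than 15% of body weight, and were aged 13 to 18 weeks at use. The study tested whether IL-6 made by the tumor cells has a causal part in cachexia.

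The cxC26 line is a C26 line that causes cachexia. The cxC26 scr cells carried a scrambled guide RNA as the CRISPR/Cas9 control, and the cxC26 IL6KOs1 cells were made with lentiviral guides against Il6 and puromycin selection. The knockout line is 1 subclone grown from a single cell, so the loss of Il6 and other traits of this subclone cannot be told apart. In an experiment of the study on the same lines in CD2F1 mice more knockout than control cells were implanted and the knockout tumors took longer to grow, and the cell number and day of the sequenced tumors are not given in the sources used here. The labels do not say whether each tumor came from a mouse of its own, so p-values measure the spread between these tumors.

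Cachexia is the loss of muscle and fat that accompanies many cancers and is not reversed by feeding alone. Activins and myostatin, ligands of the TGF-beta superfamily, bind type II receptors on muscle and drive its atrophy through SMAD2 and SMAD3, and follistatin binds and neutralises them. GDF15 lowers appetite through its receptor GFRAL in the hindbrain, TNF and TWEAK act on muscle through NF-kappaB, PTHrP raises blood calcium and promotes the browning of fat, and AZGP1 mobilises lipid.

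Total reads per tumor lay between 14158989 and 17048062, and values are log2 CPM, reads scaled to library size, as deposited. Il6, the targeted gene, had 326 to 438 reads in the control and 56 to 86 in the knockout tumors, which gives its transcript level and does not read the edit itself. Of the defining markers of colon epithelium, Krt20 was high in both groups (10.20 ± 0.11 and 10.42 ± 0.05 log2 CPM, SD, n = 4), while Epcam had at most 14 reads, Vil1 at most 3 and Krt19 at most 1 in any tumor. Cdx2, the intestinal transcription factor, had 17 to 34 reads in the control and 0 or 1 in the knockout tumors. The keratin Krt18 had 21 to 30 reads against 140 to 282, Krt8 had 3 to 6 against 9 to 15 and the adhesion gene Cdh1 had 17 to 37 against 45 to 87, all without overlap. Of these 8 markers 4 were tested, of which Krt18 (3.20) and Cdh1 (1.46, limma adjusted p = 0.00251) were higher, Cdx2 was lower and Krt20 was not called. Cdx2 reached 1 CPM in the control tumors alone and so had to differ to be tested. The 10 macrophage and monocyte markers were all higher in the knockout tumors, 7 of them also without the filter on low values described next, with a summed level of 1764 to 3197 CPM against 869 to 1135 CPM.

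Activin transcripts fell and Tnf rose in the knockout tumors, while Gdf15, Pthlh, Tnfsf12, Mstn and Fst did not pass the test. Of the 10 genes, 9 passed the filter, which asked for 1 CPM or more in 4 or more tumors, and Azgp1 did not. At an adjusted p under 0.05 from limma (Benjamini-Hochberg over all 13262 tested genes), 1 of the 9 was higher (Tnf), 3 were lower (Inhba, Inhbb and Tnfrsf12a) and 5 were not called. The same test called 39.8% of all tested genes, 19.1% higher and 20.7% lower, a share close to 4 of 9. The median log2 fold change was 0.07 over the 9 genes and -0.0029 over all tested genes, and the median absolute value was 0.33 against 0.30. The 4 called genes were also the 4 without overlap between the groups, beside 37.1% of all tested genes.

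**Figure D1:**
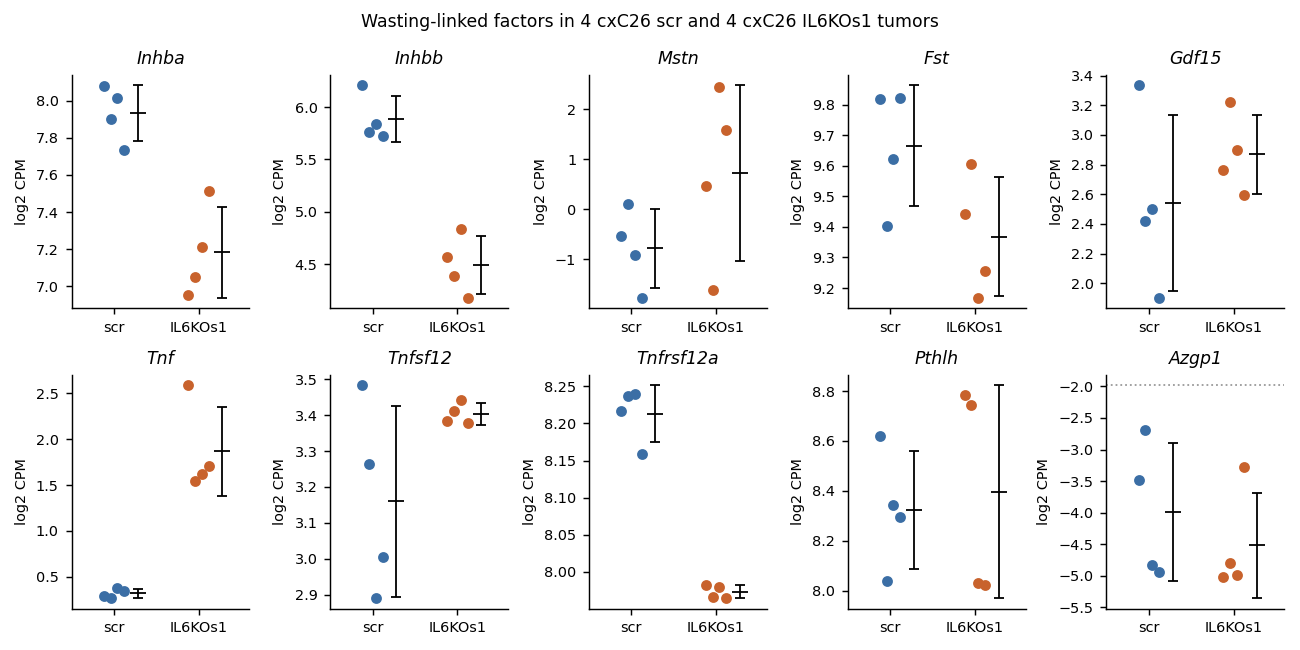
log2 CPM (y axis, a separate scale for each gene) of the 10 genes in the 4 cxC26 scr tumors (blue) and the 4 cxC26 IL6KOs1 tumors (orange), 1 point per tumor, with the mean and SD at the right of each group. The groups do not overlap for Inhba, Inhbb, Tnf and Tnfrsf12a, and the Azgp1 points all lie under the dotted line, which marks 3 reads.

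Inhba encodes the beta A subunit, which pairs with itself to form activin A. It lies on chromosome 13 of GRCm38 from 16004256 to 16031609 on the plus strand. It measured 8.08, 7.90, 8.01 and 7.73 log2 CPM in control tumors 1 to 4 and 6.95, 7.05, 7.21 and 7.51 in knockout tumors 1 to 4. All 4 knockout tumors lay below the lowest control tumor. Inhba fell by 0.75 on the log2 scale (SE 0.123, 95% interval from -1.02 to -0.48, limma adjusted p = 0.000682), to 59.5% of the control level. An exact two-sided permutation test of the difference gave p = 0.0286, the smallest that 4 tumors against 4 allow. In bulk tumors, fewer cells of a type and less RNA per cell cannot be told apart.

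Inhbb encodes the beta B subunit of activin B and of the mixed activin AB. It lies on the minus strand of chromosome 1 from 119415463 to 119422248. The control tumors measured 6.21, 5.76, 5.84 and 5.73 log2 CPM and the knockout tumors 4.56, 4.39, 4.84 and 4.18. The groups were separated by more than the range within either, and the fall was 1.39 on the log2 scale (SE 0.150, 95% interval from -1.72 to -1.06, limma adjusted p = 4.69e-05), to 38.1% of the control level. The exact permutation p was again 0.0286. Genes around Inhbb were also lower on the whole: over the 17 other tested genes in a 10 Mb window centred on it the median log2 fold change was -0.34, with 14 of them below 0, and that of all of chromosome 1 was -0.34. With the window's median subtracted, the value of Inhbb was -1.05, and the part of this regional shift in the result was not tested. For Inhba the window median was -0.02.

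The log2 ratio of Inhba to Inhbb per transcript length rose from 1.46 ± 0.14 (SD, n = 4) to 2.10 ± 0.45 without overlap, an index chosen after the values were seen (exact permutation p = 0.0286). The mix of beta subunit transcripts thus leaned further towards beta A in the knockout tumors.

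The 250 bases before the RefSeq starts of both genes are shown 5′ to 3′ on each gene's own strand, because these are the activin subunits whose transcripts fell together. They are RefSeq sequences on GRCm38.p6, chr13:16011601-16011850 (plus) for Inhba and chr1:119422249-119422498 (minus) for Inhbb, and capitals mark the letters TATAAA. The start used for Inhba lies inside the gene span given above.
Inhba: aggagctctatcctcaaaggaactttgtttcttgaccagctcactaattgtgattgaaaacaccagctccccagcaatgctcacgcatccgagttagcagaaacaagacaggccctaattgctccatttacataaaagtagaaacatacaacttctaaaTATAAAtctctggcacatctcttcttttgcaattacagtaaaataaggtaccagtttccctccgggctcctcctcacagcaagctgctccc
Inhbb: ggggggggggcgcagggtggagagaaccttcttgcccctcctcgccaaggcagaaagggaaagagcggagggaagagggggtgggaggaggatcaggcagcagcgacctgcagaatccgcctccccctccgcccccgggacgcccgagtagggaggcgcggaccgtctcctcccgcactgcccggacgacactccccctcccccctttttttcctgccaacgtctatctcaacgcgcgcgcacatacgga
The window before Inhba was 43.2% G or C and held TATAAA 91 bases before the start. That before Inhbb was 68% G or C and held no TATAAA on either strand. Over all 32851 promoters of the table the median was 52.4% G or C, and 12.4% held TATAAA on either strand. Neither window held the AP-1 letters TGANTCA (6.75% of all promoters), the STAT letters TTCNNNGAA (7.02%), the cAMP response element TGACGTCA (1.55%) or the SMAD palindrome GTCTAGAC (0.167%).

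Markers of other cell types moved beside these subunits. Of the 7 fibroblast markers 3 were lower and 1 was higher, and their summed level was 7784 to 10323 CPM in the control and 5555 to 8704 CPM in the knockout tumors. None was at 0, and Col3a1, the highest in log2 CPM, fell by 0.53 on the log2 scale (limma adjusted p = 0.0275, and 0.185 without the filter). The other called markers are named after their values were seen. Pdgfra (-0.78, limma adjusted p = 0.00135, and 0.0105 without the filter) and Pdgfrb (-0.77, limma adjusted p = 0.00126, and 0.00831 without it) were lower. Lum was higher (1.01, limma adjusted p = 0.00565, and 0.0287 without it). The part of the fibroblast markers in the fall of Inhba and Inhbb was not tested.

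Counts of the pathway lists, here and below, stand beside 19.1% higher and 20.7% lower over all tested genes. No list was tested as a set. Among the activin and myostatin ligands as a list, which holds Inhba, Inhbb and Mstn, 5 of 7 were tested. Of these 3 were lower, Inhba and Inhbb among them, and 2 were not called. The median log2 fold change, -0.75, is the value of Inhba itself. The third lower ligand was Gdf11, the close relative of myostatin, which fell by 1.38 (SE 0.156, limma adjusted p = 6.38e-05). Inhbe had no read in any tumor and Inhbc had at most 2. Of the receptors, 3 of 5 tested were lower and 2 were not called, with a median of -0.33. Acvr2b, a type II receptor for activins and myostatin, went from 2.83 ± 0.26 to 1.59 ± 0.26 log2 CPM (SD, n = 4), a fall of 1.24 (SE 0.204, limma adjusted p = 0.000696). Tgfbr1, which had the highest log2 CPM of the receptors, fell by 0.42 (limma adjusted p = 0.0225, and 0.0733 without the filter), and Acvr1 fell by 0.33 (adjusted p = 0.00877), the latter named after its value was seen. Among 10 intracellular mediators 2 were higher and 2 lower, with a median of -0.05. The SMAD repressor Ski, highest of them in log2 CPM, did not pass the test (0.20, limma adjusted p = 0.121). Among 6 tested proteases that process these ligands 2 were lower, and Furin, which cuts activin precursors, fell by 0.86 (SE 0.122, limma adjusted p = 0.000291).

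Fst encodes follistatin, the antagonist that sequesters activins, and lies on chromosome 13 from 114452262 to 114458989 on the minus strand. The control tumors measured 9.82, 9.40, 9.62 and 9.82 log2 CPM and the knockout tumors 9.44, 9.61, 9.17 and 9.26. The groups overlapped, since knockout tumors 1 and 2 lay within the control range. The difference was -0.30 (SE 0.127, 95% interval from -0.58 to -0.02, limma adjusted p = 0.0818) and did not pass the test. It passed without control tumor 2 (-0.39, adjusted p = 0.0379) or without knockout tumor 2 (-0.38, adjusted p = 0.0343). Of the 5 tested antagonists, Fst among them, 2 were lower and 3 were not called. Their median, -0.30, is the value of Fst itself. The lower ones, named after their values were seen, were the co-receptor Tgfbr3 (-0.45, limma adjusted p = 0.00172) and the decoy receptor Bambi (-0.91, adjusted p = 0.0208, and 0.0656 without the filter).

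Follistatin mRNA exceeded that of the activin subunits in every tumor. Per kilobase of longest transcript, Fst was 7.28 times Inhba in the control and 9.95 times Inhba in the knockout tumors, as geometric means. The log2 ratio of Inhba to Fst was -2.86 ± 0.26 (SD, n = 4) against -3.31 ± 0.40. The groups overlapped, and an exact two-sided permutation test gave p = 0.143. With both subunits summed over Fst, the log2 ratios were -2.42 ± 0.24 and -3.01 ± 0.36 (exact p = 0.0857). These ratios were chosen after the values were seen.

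Mstn encodes myostatin, the muscle-made brake on muscle growth, and lies on chromosome 1 from 53061640 to 53068079 on the plus strand. It was rare, with 11, 17, 7 and 4 reads in control tumors 1 to 4 and 22, 4, 86 and 43 in knockout tumors 1 to 4. Knockout tumors 1, 3 and 4 were above every control tumor, and knockout tumor 2 lay inside the control range. The difference was 1.50 on the log2 scale (SE 0.746, 95% interval from -0.13 to 3.13, limma adjusted p = 0.131; exact permutation p = 0.171), so it did not pass the test. It passed without knockout tumor 2 (2.28, adjusted p = 0.00791). The gene entered the test through 4 tumors at or above 1 CPM, of which 3 were knockout tumors. The 35 other tested genes of its 10 Mb window had a median log2 fold change of -0.30.

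Skeletal muscle markers varied from tumor to tumor as well. Their summed level was 41.1, 166, 43.1 and 9.36 CPM in control tumors 1 to 4 and 26.5, 79.1, 106 and 352 CPM in knockout tumors 1 to 4. The lowest and the highest control tumor were the same in Mstn and in muscle markers, tumors 4 and 2. Among the knockout tumors they differed: tumor 2 was lowest and tumor 3 highest in Mstn, and tumor 1 lowest and tumor 4 highest in muscle markers. Of the 10 markers 7 were tested and 1, Myh1, was higher (1.96, limma adjusted p = 0.0443, and 0.152 without the filter). Acta1 was among those not called (0.83, limma adjusted p = 0.519), and Myog, a marker of differentiating muscle precursors, had 0 or 1 read. Their part in the Mstn values was not tested.

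**Figure D2:**
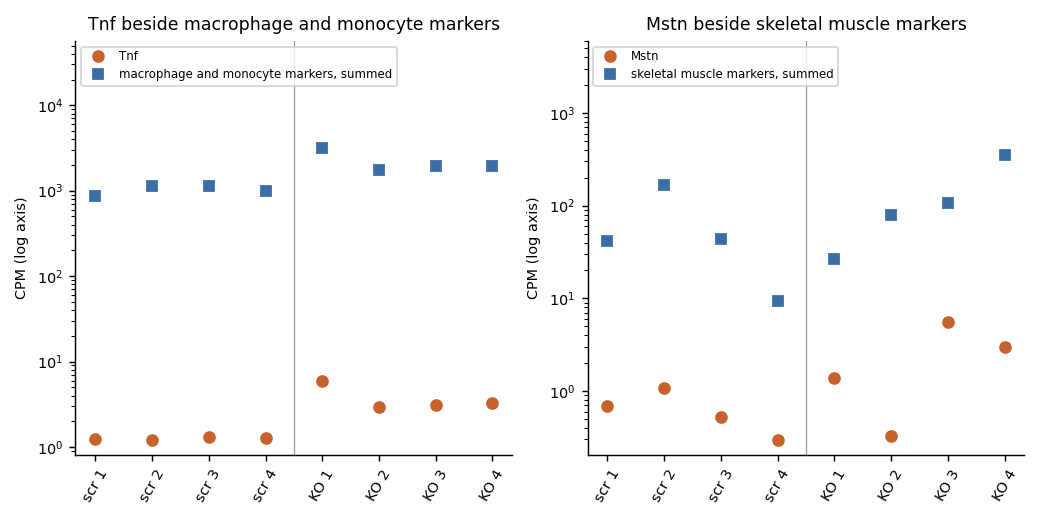
CPM on a log axis in each of the 8 tumors for Tnf (orange circles, left) with the summed macrophage and monocyte markers (blue squares), and for Mstn (orange circles, right) with the summed skeletal muscle markers (blue squares). On the left both are higher in every knockout tumor and highest in knockout tumor 1, and on the right both spread widely within each group.

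Tnf encodes tumor necrosis factor, once called cachectin. It lies on chromosome 17 from 35199367 to 35202007 on the minus strand. It had 20, 19, 18 and 19 reads in the control tumors and 97, 40, 48 and 47 in the knockout tumors, or 0.30, 0.27, 0.38 and 0.34 against 2.59, 1.55, 1.62 and 1.71 log2 CPM. The control tumors differed by at most 2 reads, every knockout tumor was above all of them, and knockout tumor 1 stood above the other 3. Tnf rose by 1.55 on the log2 scale (SE 0.270, 95% interval from 0.96 to 2.13, limma adjusted p = 0.000988; exact permutation p = 0.0286), or 2.92-fold. Without knockout tumor 1 it rose by 1.31 (adjusted p = 0.00165). With 1 CPM added to every value the rise was 1.06.

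The upstream window of Tnf is shown as that of the single gene that rose, from RefSeq on GRCm38.p6, chr17:35202008-35202257 (minus), with TATAAA in capitals.
Tnf: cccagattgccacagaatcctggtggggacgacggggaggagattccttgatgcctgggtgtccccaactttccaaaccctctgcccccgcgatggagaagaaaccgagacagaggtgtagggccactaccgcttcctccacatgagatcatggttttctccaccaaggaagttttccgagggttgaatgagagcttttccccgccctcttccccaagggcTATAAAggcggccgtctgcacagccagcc
It was 57.6% G or C and held TATAAA 29 bases before the start. None of the 9 windows available for 8 of the 10 genes matched the kappaB motif on either strand, which 7.25% of all promoters did.

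Tnf is made largely by macrophages and lymphocytes, and their markers rose too. The mean log2 CPM of the 10 macrophage and monocyte markers was 6.09 ± 0.12 (SD, n = 4) in the control and 7.23 ± 0.37 in the knockout tumors, with knockout tumor 1 highest at 7.74. No marker of the list was at 0, and Lyz2, its highest in log2 CPM, rose by 1.20 (limma adjusted p = 0.000717). Tnf minus this mean was -5.77 ± 0.12 in the control and -5.36 ± 0.17 in the knockout tumors, higher by 0.41 without overlap (exact permutation p = 0.0286, an index chosen after the values were seen). The 10 T and NK cell markers had a summed level of 19.8 to 46.5 CPM against 3.51 to 7.79 CPM. Of these, 7 were tested and called higher, but 4 of the 7 reached 1 CPM in the knockout tumors alone and so had to differ to be tested. The part of these cells in the rise of Tnf was not tested.

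Of the 13 genes for TNF shedding, receptors and signalling, all tested, 2 were higher, 1 was lower and 10 were not called, with a median of 0.07. Adam17, the protease that releases TNF from the cell surface and the highest of the list in log2 CPM, did not pass the test (-0.03, limma adjusted p = 0.864). The called genes beside Tnf, named after their values were seen, were its receptor Tnfrsf1b, which rose by 0.66 (adjusted p = 0.00192), and Rhbdf2, which aids ADAM17 maturation and fell by 0.85 (adjusted p = 0.000522).

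Tnfsf12 encodes TWEAK, a TNF family ligand, and Tnfrsf12a its receptor Fn14, whose expression on muscle promotes atrophy. Tnfsf12 lies on chromosome 11 from 69686240 to 69696098 and Tnfrsf12a on chromosome 17 from 23675445 to 23677449, both on the minus strand. Tnfsf12 measured 3.48, 3.26, 2.89 and 3.00 log2 CPM in the control and 3.38, 3.41, 3.44 and 3.38 in the knockout tumors, all 4 of the latter inside the control range. Its difference was 0.24 (SE 0.152, 95% interval from -0.09 to 0.58, limma adjusted p = 0.225).

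Tnfrsf12a measured 8.22, 8.24, 8.24 and 8.16 log2 CPM in the control and 7.98, 7.97, 7.98 and 7.96 in the knockout tumors. The replicates were close together and the groups did not overlap. It fell by 0.24 (SE 0.069, 95% interval from -0.39 to -0.09, limma adjusted p = 0.0169; exact permutation p = 0.0286), to 84.7% of the control level. The 151 other tested genes within its 10 Mb window had a median log2 fold change of -0.11, and with it subtracted the value was -0.13. The adjusted p reached 0.0497 with control tumor 3 left out.

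The receptor was far more abundant than the ligand. Per transcript length, Tnfrsf12a was 48.4 times Tnfsf12 in the control and 34.6 times in the knockout tumors (log2 ratios 5.60 ± 0.26 and 5.11 ± 0.03, SD, n = 4, exact permutation p = 0.0286, chosen after the values were seen). Over the 8 genes of the TWEAK axis, Tnfsf12 and Tnfrsf12a among them, 1 was higher, 2 were lower and 5 were not called. Their median was -0.07. Cd163, a macrophage scavenger receptor that binds TWEAK, fell by 1.15 (SE 0.422, limma adjusted p = 0.0479, and 0.160 without the filter) while the groups overlapped. Nfkb2, named after its value was seen, rose by 0.44 (adjusted p = 0.0151, and 0.0531 without the filter).

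Gdf15 encodes the stress-induced hormone of appetite loss and lies on chromosome 8 from 70629393 to 70632470 on the minus strand. It measured 3.34, 2.42, 2.50 and 1.90 log2 CPM in the control and 2.77, 3.22, 2.90 and 2.59 in the knockout tumors. Every knockout tumor lay within the control range, whose upper end was set by control tumor 1. All knockout tumors were above control tumors 2, 3 and 4. The difference was 0.33 (SE 0.270, 95% interval from -0.26 to 0.92, limma adjusted p = 0.352). It did not pass with any tumor left out, where it ran from 0.12 to 0.60 and the adjusted p came down to 0.0501. The control tumors alone were spread over more than 1 log2 unit.

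Gfral, the receptor of GDF15, had 0 or 1 read in each tumor. Of the 8 tested genes for the GDF15 receptor and its inducers, Gdf15 among them, 2 were higher and 1 was lower, with a median of 0.09. The called genes were transcription factors that can induce Gdf15, named after their values were seen. Ddit3 rose by 0.92 (limma adjusted p = 0.00123), Atf4 rose by 0.40 (adjusted p = 0.00699) and Egr1 fell by 0.79 (adjusted p = 0.00219). Mmp14, the highest of the list in log2 CPM and a protease of GFRAL, did not pass the test (-0.32, adjusted p = 0.0617). The windows before both RefSeq starts of Gdf15 held no ATF4 element TGATGNAA, found in 3.45% of all promoters.

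Pthlh encodes PTHrP and lies on chromosome 6 from 147252109 to 147264013 on the minus strand. It measured 8.62, 8.04, 8.34 and 8.29 log2 CPM in the control and 8.78, 8.75, 8.03 and 8.02 in the knockout tumors. Knockout tumors 1 and 2 were above all control tumors and tumors 3 and 4 below all of them. The difference was 0.07 (SE 0.188, 95% interval from -0.34 to 0.48, limma adjusted p = 0.784), and its sign turned with control tumor 2 or knockout tumor 1 or 2 left out (-0.02, -0.056 and -0.04). Pthlh was thus at a high level in both groups, with no difference shown.

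Of the 7 tested genes of the PTHrP axis, Pthlh among them, 1 was higher, 2 were lower and 4 were not called. Their median, 0.07, is the value of Pthlh itself. Tnfrsf11b encodes osteoprotegerin, the decoy for the bone-resorbing ligand RANKL. It had 1576, 2146, 1978 and 1366 reads in the control and 101, 141, 195 and 328 in the knockout tumors, and fell by 3.27 (SE 0.311, limma adjusted p = 1.88e-05). Gli2, a transcription factor known to drive Pthlh in bone metastasis, had 51 to 87 reads against 2 to 13 and fell by 3.42 (SE 0.536, adjusted p = 0.000522). Gli2 reached 1 CPM in the control tumors alone and so had to differ to be tested. Pth1r, the PTHrP receptor, named after its value was seen, rose by 0.92 (adjusted p = 0.0106). Gnas, which couples that receptor and was the highest of the list in log2 CPM, did not pass the test (-0.21, adjusted p = 0.151).

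Azgp1, the lipid-mobilising factor, lies on chromosome 5 from 137981521 to 137990233 on the plus strand. It had 1, 2, 0 and 0 reads in the control and 0, 0, 0 and 1 in the knockout tumors, so its transcript was at or under 3 reads everywhere and no fold change is given.

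**Figure D3:**
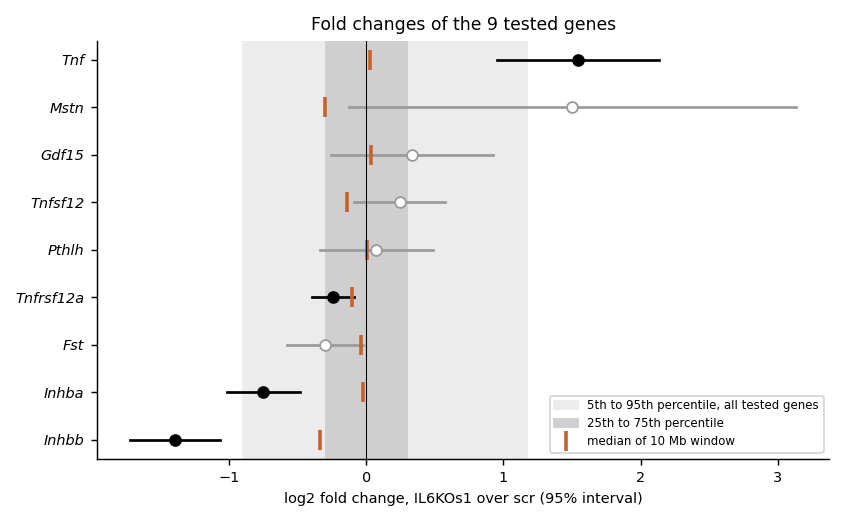
log2 fold change of cxC26 IL6KOs1 over cxC26 scr tumors (x axis) with 95% intervals for the 9 tested genes, filled black where the adjusted p was under 0.05. Of the called genes, Inhbb, Inhba and Tnf lie outside the dark band (25th to 75th percentile of all tested genes, -0.30 to 0.30). The called Tnfrsf12a lies inside it. Of the genes not called, Mstn, Gdf15 and, at its very edge, Fst also lie outside, while Tnfsf12 and Pthlh lie inside. The orange ticks give the median of each gene's 10 Mb window.

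The levels of the genes can be ordered per kilobase of the longest annotated transcript, in log2 CPM per kb over 4 tumors. In the control tumors Tnfrsf12a (8.24 ± 0.04), Fst (8.12 ± 0.20) and Pthlh (7.64 ± 0.24) were the highest, above 98.7%, 98.6% and 98.0% of 12730 tested genes with a length. Inhba (5.26 ± 0.15) and Inhbb (3.80 ± 0.22) followed, above 85.0% and 60.5%. Tnfsf12 (2.64 ± 0.27) and Gdf15 (1.91 ± 0.59) came next, then Tnf (-0.39 ± 0.05), Mstn (-2.22 ± 0.79) and Azgp1. Tnfrsf12a and Fst were closer together than the larger of their SDs.

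In the knockout tumors the first 4 kept their places, with Inhba at 4.51 ± 0.24. Tnfsf12 (2.88 ± 0.03) then came before Inhbb (2.40 ± 0.28), which had dropped to the level of Gdf15 (2.24 ± 0.27). Tnf was at 1.15 ± 0.48, above 19.6% of genes against 9.28% in the control tumors. Neighbours closer than the larger of their SDs were Tnfrsf12a and Fst, Fst and Pthlh, and Inhbb and Gdf15.

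**Figure D4:**
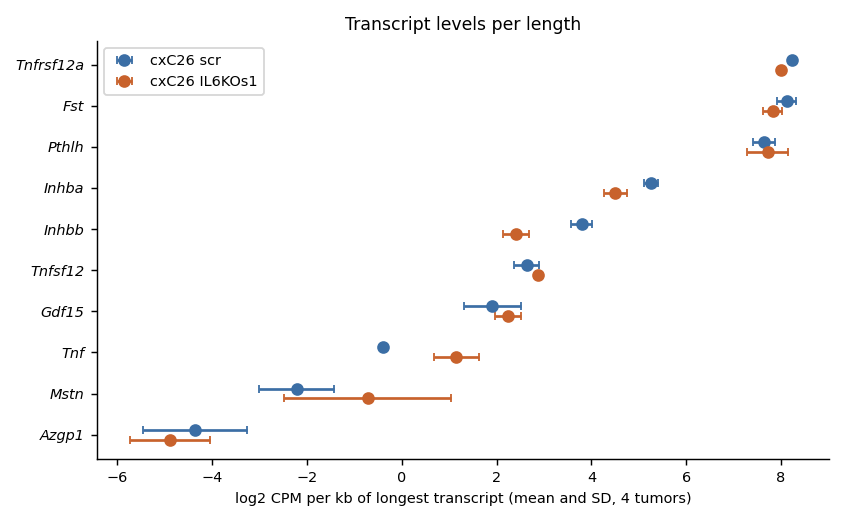
Mean level per transcript length (x axis, log2 CPM per kb of the longest transcript) and SD over 4 tumors for the 10 genes, cxC26 scr in blue and cxC26 IL6KOs1 in orange. Tnfrsf12a, Fst and Pthlh lie above 7 in both groups, and Inhbb drops from 3.80 to 2.40, next to Gdf15.

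Within the IL-6 family the same tumors showed larger falls for 2 cytokines. Il11, the highest of that family in log2 CPM, fell by 3.69 and Il6 fell by 2.45, while Lif fell by 1.25 (limma adjusted p = 3.80e-07, 1.76e-06 and 0.000276), beside the falls of 1.39 for Inhbb and 0.75 for Inhba. The differences between genes were not tested. Osm, an IL-6 family cytokine of macrophages, rose by 1.39 (adjusted p = 0.0275, and 0.107 without the filter). Of the family's 6 tested genes 1 was higher, 3 were lower and 2 were not called.

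**Figure D5:**
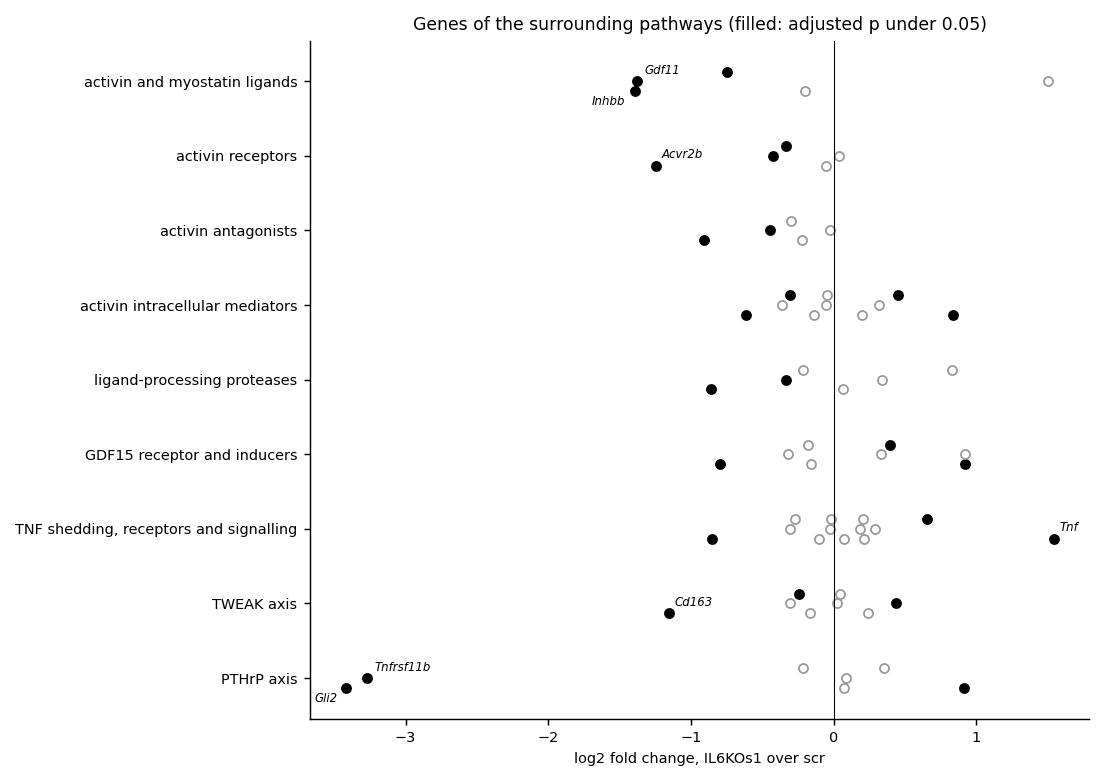
log2 fold change (x axis) of each tested gene of 9 pathway lists (rows), filled black where the adjusted p was under 0.05 and labelled where it also reached 1 in size. The called activin ligands, receptors and antagonists all lie left of 0, and Tnf is the labelled gene on the right. Over all tested genes 20.7% were called lower and 19.1% higher, and no list was tested as a set.

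Reads of some of these genes overlap other annotated genes. Inhba overlaps B230303A05Rik and Gm48444 on the opposite strand, Fst overlaps Gm47040, and Tnfsf12 overlaps Tnfsf13os on the opposite and Tnfsfm13 on its own strand. The strand setting of the counting is not given in the sources used here, so reads of such pairs cannot be told apart. Tnfsf13os had 5 to 13 reads and Tnfsfm13 had 1 to 4 in each tumor, against 105 to 186 for Tnfsf12.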

How the data were processed

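RNA was sequenced from 8 tumors, 4 per group, and samples were grouped by their titles. According to the study's methods, the authors trimmed paired reads with Trimmomatic, aligned them to mm10 (GRCm38) with HISAT2, counted genes with featureCounts and deposited log2 CPM from limma-voom. The submitters' processing notes name bcl2fastq 2.17, and the other versions, the annotation and the strand setting are not given in the sources used here. The deposited log2 values hold an offset of 0.5 read, and inverting it gave whole reads for 100% of values (tolerance 0.01), with totals of 14158989 to 17048062 per tumor, which limit genes with few reads.

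A linear model was fitted by limma 3.58.1 (R 4.3.3) with trended empirical Bayes variances to the deposited log2 CPM of 13262 genes that reached 1 CPM in 4 or more tumors, with Benjamini-Hochberg adjustment over all of them and a threshold of 0.05. Single values also had a two-sided exact permutation test over all 70 splits. The method was tested on simulated data with planted changes larger than that of any of the 10 genes. That test does not cover changes of their size. Positions and promoter windows came from RefSeq tables on GRCm38.p6 (8 of the 10 genes had a window), and transcript lengths and overlaps from GENCODE M21. Alternatives were other filters, quantile normalization, median re-centring, a replicate block, each tumor left out, a variance without trend, voom weights, an added 1 CPM and the median of a 10 Mb window subtracted. Both groups use replicate numbers 1 to 4, but deviations of same-numbered tumors correlated by only -0.06 to 0.06, so they were not treated as pairs.

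Named genes are all 10 members and, from each pathway list, the tested gene of highest mean log2 CPM and those called with an absolute log2 fold change of at least 1, with exceptions stated. The partners of AZGP1 are not reported here. The members and lists were chosen with earlier results of these data known.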

Additional observations from a re-analysis of the deposited data

Results flagged for a closer look

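Among the knockout tumors, 1 stood far from the other 3 for 2 of the 10 genes. Tnf was at 2.59 log2 CPM in knockout tumor 1 against 1.55 to 1.71 in the others, a gap of 0.840 of the group's whole range. That tumor was also the highest in macrophage and monocyte markers (3197 CPM against 1764 to 1971), and their part in its Tnf level was not tested. Azgp1 was at -3.27 log2 CPM in knockout tumor 4 against -5.02 to -4.79, a gap of 0.869 of the range, which comes from 1 read against 0. Of 20 groups examined 2 were picked out, where chance gives 1.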

How the results depend on the processing

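Inhba, Inhbb, Tnf and Tnfrsf12a kept their direction and their call under every alternative that gave them a test, with Inhba between -0.86 and -0.67, Inhbb between -1.51 and -1.28, Tnf between 1.31 and 1.65 and Tnfrsf12a between -0.26 and -0.23 when 1 tumor was left out. Subtracting the median of a 10 Mb window, which gives no test, moved Inhbb to -1.05 and Tnfrsf12a to -0.13. When genes averaging under 3 log2 CPM were dropped, 0 of the genes were higher, since Tnf, like Gdf15, Mstn and Azgp1, is below that level and has no value there. Leaving out 1 tumor gave 1 to 2 genes higher and 3 to 4 lower, the additions being Mstn without knockout tumor 2 (0.93 to 2.28 over the 8 fits) and Fst without tumor 2 of either group (-0.39 to -0.23). Pthlh ran from -0.056 to 0.20 over the same fits and turned sign in 3 of them (-0.02, -0.056 and -0.04). Over all genes these fits called 2023 to 2540 higher and 2193 to 2674 lower. With the replicate number as a block, 1 gene was higher and 3 were lower, as without it, and 2477 and 2688 of all genes were called; the numbers do not pair the tumors, since their deviations correlated by -0.06, 0.06, 0.02 and -0.06. For Azgp1, too few reads left no value under the filters, median re-centring, voom weights or the window. For the other genes of the lists only the fit without the filter on low values was read, a choice made after seeing the data. There 23 of 30 called pathway genes and 27 of 33 called markers stayed past the threshold, and the losses were Bambi, Cd163, Hsp90aa1, Nfkb2, Osm, Pcsk7, Tgfbr1, C1qb, C1qc, Col3a1, Lck, Mrc1 and Myh1. Leaving out tumors was not run for them, and the medians of their 10 Mb windows were not subtracted. Whole chromosomes had median log2 fold changes from -0.34 to 0.33. The part of such regional shifts in the list genes was not tested. Reads per tumor limit Tnf, Mstn and Azgp1 most.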

Other observations

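Other secreted factors tied to wasting were read as a list. Of 9 listed, 7 were tested, of which 3 were higher, 1 was lower and 3 were not called. Over all tested genes 39.8% were called. Il1a, Il1b, Adm and Cxcl1 were either not called or not tested. Ccl2, the monocyte attractant, had 826, 836, 388 and 508 reads in the control and 2094, 1441, 2256 and 2145 in the knockout tumors, and rose by 1.74 (SE 0.194, limma adjusted p = 5.90e-05). Lcn2, which encodes the appetite-suppressing lipocalin-2, had 40, 79, 34 and 42 reads against 247, 134, 141 and 132 and rose by 1.81 (SE 0.260, adjusted p = 0.000308). Hsp90aa1, the highest of the list in log2 CPM, rose by 0.36 (adjusted p = 0.0172, and 0.0727 without the filter). Tgfb1, named after its value was seen, fell by 0.53 (adjusted p = 0.0102). Ifng was not tested and had 0 reads in all control tumors and 33, 0, 1 and 2 in the knockout tumors. The macrophage, T and NK cell markers given in the report were higher in the same tumors, and their part in these values was not tested.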
